A study of Mus musculus with 2 samples.

Results

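The genes described here make, move and regulate cholesterol and fatty acids. They were chosen by name: 18 enzymes of sterol synthesis, 5 regulators of the pathway, 5 genes of sterol transport and export, and 13 enzymes that make, desaturate or elongate fatty acids, 41 genes in all. Of these, 39 had a value, out of 19503 genes with a value on the arrays. Acat2 and Idi1 were matched to no probe set that names 1 gene and were not analysed here. RNA was taken from pooled cerebella of Tg(Pcp2-L10a-Egfp) mice at postnatal day 7. The transgene places a ribosomal protein, L10a, tagged with green fluorescent protein under the promoter of Pcp2, a gene of Purkinje cells. Translating ribosome affinity purification (TRAP) pulls down tagged ribosomes with antibodies against the fluorescent protein, and the mRNA on them is then extracted. The RNA that the beads left behind is the unbound fraction, so animals of the same transgenic line, with no other allele or treatment named, stand behind both fractions. Each fraction was hybridised to 1 Affymetrix array. The sources used here do not give the strain background, how many animals were pooled, or whether 1 pool served both fractions.

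Since each fraction has 1 array, no gene has a replicate, an error or a test. Differences are log2 values in TRAP minus those in unbound, so a negative difference means a higher value in unbound. A gene is said to pass 2-fold in a fraction when its value there is 2-fold or more above that in the other fraction, and no p-value is given. In RNA from a whole fraction, fewer cells of a type and less RNA per cell cannot be told apart.

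Cholesterol is built from acetyl-CoA. Cytosolic enzymes make mevalonate and join isoprene units into farnesyl diphosphate, and enzymes at the endoplasmic reticulum turn that into squalene, lanosterol and finally cholesterol. Fatty acids follow a like order: cytosolic enzymes make palmitate, and enzymes in the endoplasmic reticulum membrane lengthen it and add double bonds. Transcription of both sets of enzymes is driven by the sterol regulatory element binding proteins, which stay in the endoplasmic reticulum with Scap and Insig proteins while sterol is plentiful and are released to the nucleus when it is scarce. The brain makes its own cholesterol, and astrocytes pass it to other cells on particles that carry apolipoprotein E.

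Promoters are shown because the pathway is known for shared control by these proteins with the CCAAT-binding factor NF-Y. The sequences are the 250 bases before the annotated start of transcription, from RefSeq on GRCm38.p6, and 33 of the 41 genes were found in that table, with 44 promoters. Hmgcs1 (chr13:119690101-119690350 on the plus strand) is shown as the only promoter of the 44 with the sterol regulatory element letters searched for. Cyp51 (chr5:4104698-4104947 on the minus strand) and Fads2 (chr19:10101504-10101753 on the minus strand) are shown for the large differences of their transcripts, and Fasn (chr11:120824548-120824797 on the minus strand) for its small one. Capitals mark the sterol regulatory element TCACNCCAC and CCAAT on either strand.
Hmgcs1: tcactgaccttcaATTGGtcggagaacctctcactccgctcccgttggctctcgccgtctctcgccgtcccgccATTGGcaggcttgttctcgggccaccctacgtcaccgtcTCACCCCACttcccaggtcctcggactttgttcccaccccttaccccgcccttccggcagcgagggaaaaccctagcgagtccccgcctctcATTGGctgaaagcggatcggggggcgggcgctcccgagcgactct
Cyp51: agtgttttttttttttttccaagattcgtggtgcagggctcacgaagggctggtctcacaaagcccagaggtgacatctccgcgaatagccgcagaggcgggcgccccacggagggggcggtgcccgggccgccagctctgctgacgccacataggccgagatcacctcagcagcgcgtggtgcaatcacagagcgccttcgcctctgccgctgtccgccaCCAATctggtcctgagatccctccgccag
Fads2: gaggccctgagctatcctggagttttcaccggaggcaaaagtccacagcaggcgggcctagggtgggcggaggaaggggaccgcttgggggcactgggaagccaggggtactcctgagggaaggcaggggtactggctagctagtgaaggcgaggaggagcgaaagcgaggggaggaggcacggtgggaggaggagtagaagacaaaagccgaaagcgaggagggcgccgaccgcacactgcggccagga
Fasn: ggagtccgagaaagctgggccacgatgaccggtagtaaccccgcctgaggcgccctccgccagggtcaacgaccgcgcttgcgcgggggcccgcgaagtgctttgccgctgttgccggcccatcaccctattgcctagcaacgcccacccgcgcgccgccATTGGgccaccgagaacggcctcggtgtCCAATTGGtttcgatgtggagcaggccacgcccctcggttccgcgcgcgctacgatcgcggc
The Hmgcs1 match, TCACCCCAC, starts 137 bases before the start of transcription and stands between inverted CCAAT boxes at 176 and 45 bases, with a further inverted CCAAT at 237 bases. In Cyp51 a single CCAAT lies 29 bases before the start. Fasn has an inverted CCAAT at 90 bases and an overlapping forward and inverted pair at 62 and 59 bases. The Fads2 window holds neither motif.

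CCAAT was found upstream of 14 of 15 sterol synthesis genes in the table (93.3%) and of 4 of 10 fatty acid genes (40.0%), against 39.5% of 17491 protein-coding genes. By promoter, 14 of 18 in the sterol set and 4 of 11 in the fatty acid set held it, against 33.8% of all 32851 promoters. The Sp1-type box GGGCGG occurred in 15 of 18 sterol and 7 of 11 fatty acid promoters, with 32.7% over all promoters and 42.6% over protein-coding ones. TCACNCCAC was rare, in 1.05% of all promoters, and the E-box CACGTG, searched once because it reads the same on both strands, was in 3 of 18 sterol and 1 of 11 fatty acid promoters and in 6.02% of all. The other motifs were searched on both strands. Fdps, Fdft1, Sqle, Scd1, Scd2, Fads1, Stard4 and Npc1 had no promoter to compare, so the fatty acid set lacks 3 of the 5 desaturases. These counts describe letters in a window, not bound sites.

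The purification and the labels were checked first. Pcp2, whose promoter drives the tag, was 2.52-fold higher in TRAP (12.98 against 11.65), and Rpl10a, the tagged ribosomal protein, 1.45-fold higher (12.67 against 12.13); probe sets for Rpl10a cannot separate the transgene from the endogenous gene. Each of 9 Purkinje cell markers with a value was higher in TRAP and 6 passed 2-fold there, against 4.58% of all genes. The median difference of the 9 was 1.34. The table holds no detection calls. Values at or below 7.08, the median of all values on both arrays, are called low here and their folds are uncertain.

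Most of the lipid genes were lower on the Purkinje cell ribosomes than in the unbound RNA. Of the 39 genes, 35 had the higher value in unbound and 21 (53.8%) passed 2-fold there, against 11.0% of all 19503 genes. None passed 2-fold in TRAP, a class that held 4.58% of all genes. At 4-fold in unbound stood 4 genes, Apoe, Fads2, Fdft1 and Cyp51, against 2.37% of all genes. The median difference of the 39 was -1.08, while that of all genes was 0.10. Over the 9734 genes with a mean of both arrays above 7.08 the median was -0.10. Of the 21 genes, 17 had values above the low range on both arrays and 4 (Cyp51, Msmo1, Ebp and Npc1) were low in TRAP.

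These counts moved with the scaling of the arrays. The TRAP array had the lower median (6.92 against 7.25), and subtracting each array's median raised every difference by 0.33 and the median over all genes to 0.43. Then 30 of the 39 genes were higher in unbound and 13 passed 2-fold, where 6.80% of all genes did, and 1, Pmvk, passed 2-fold in TRAP, where 10.1% of all genes did. After quantile normalization 31 genes were higher in unbound and 16 passed 2-fold, against 8.60% of all genes. With a loess trend on the mean level removed, the counts were 34 and 20, and 10.1% of all genes passed 2-fold in unbound. The 13 genes that passed 2-fold in unbound under every one of these 4 scalings were Fdft1, Cyp51, Msmo1, Ebp, Srebf2, Insig1, Stard4, Apoe, Npc1, Scd1, Fads1, Fads2 and Elovl5.

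**Figure D1:**
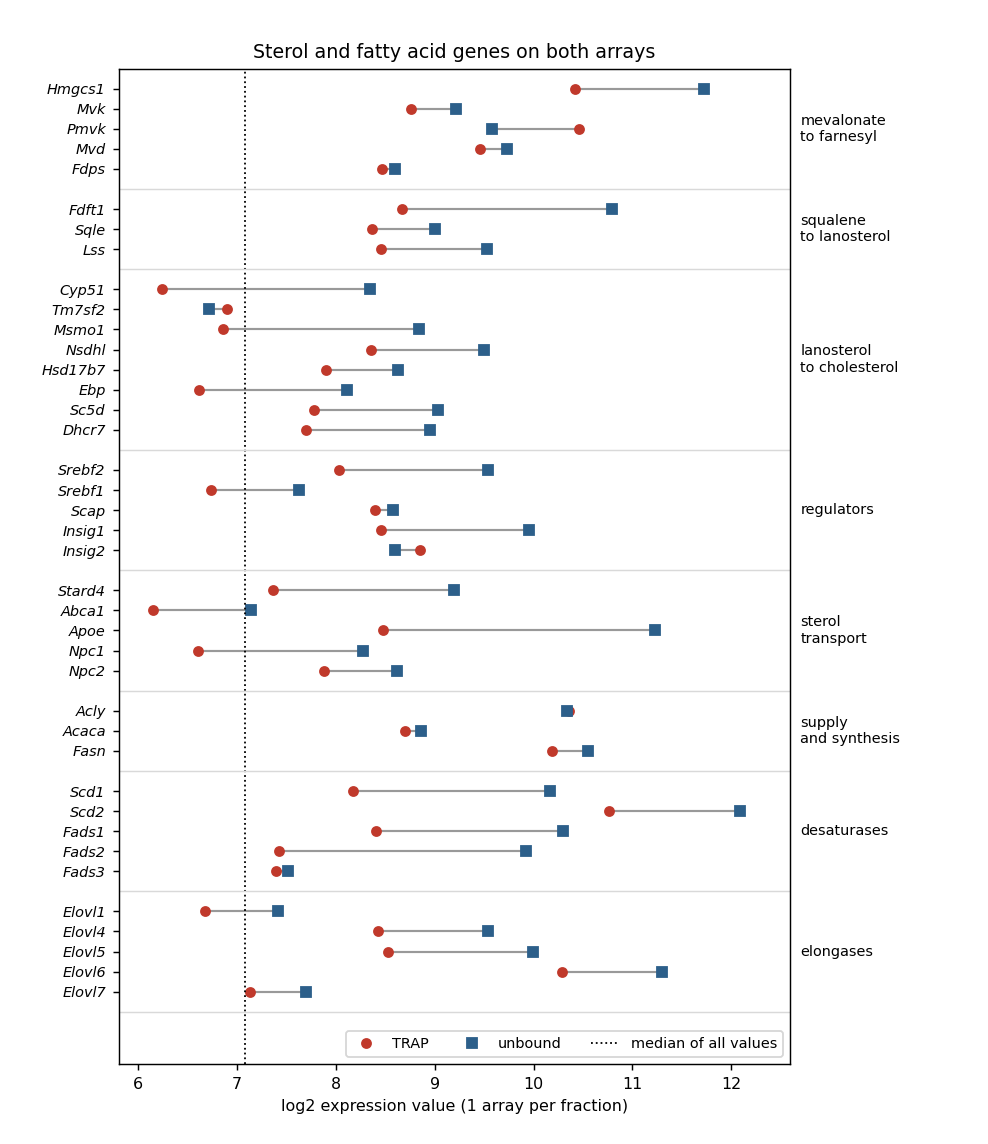
The log2 expression value of each of the 39 genes on the TRAP array (red circles) and the unbound array (blue squares), in pathway order, with a dotted line at the median of all values, 7.08. The unbound square lies to the right of the TRAP circle for 35 genes, and 7 genes have only their TRAP value left of the dotted line; levels of different genes come from different probes and are not comparable.

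The sterol and the fatty acid branch differed little as wholes. In sterol synthesis, 9 of 16 measured enzymes (56.2%) passed 2-fold in unbound, with a median difference of -1.11 and a range from -2.12 to 0.88. In the fatty acid branch, 7 of 13 enzymes (53.8%) did, with a median of -1.01 and a range from -2.50 to 0.02. Both counts stand beside 11.0% of all genes. The medians lay 0.10 apart with the sterol branch lower, and under quantile normalization and loess removal the sterol median was the higher by 0.012 and 0.013. The range within each branch was wider than these distances.

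The first steps of sterol synthesis, which run in the cytosol, gave mixed and mostly small differences. Hmgcs1, the HMG-CoA synthase whose promoter is printed above, read 10.42 in TRAP against 11.73, a 2.47-fold difference (-0.98 with array medians subtracted). It was the only 1 of 5 measured genes here to pass 2-fold in unbound, where 11.0% of all genes did. Mvk, mevalonate kinase, read 8.76 and 9.21. Pmvk, phosphomevalonate kinase, went the other way with 10.46 in TRAP and 9.58 in unbound, 1.85-fold, and 94.0% of all genes had a lower difference. Its neighbours in the pathway were close to equal: Mvd, the decarboxylase, read 9.46 against 9.73 and had the opposite sign with array medians subtracted (0.07). Fdps, farnesyl diphosphate synthase, read 8.47 against 8.60 and had the opposite sign under each other scaling. The median of this stretch was -0.26, or 0.07 with array medians subtracted.

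From squalene onward, where the enzymes sit at the endoplasmic reticulum membrane, the unbound values were higher for 10 of 11 genes, and 8 passed 2-fold. That count was 4 with array medians subtracted and after quantile normalization, and 7 with the loess trend removed. The shares of all genes were 11.0% as deposited, then 6.80%, 8.60% and 10.1% in that order. Fdft1, squalene synthase, commits farnesyl diphosphate to sterols and read 8.67 in TRAP against 10.80 in unbound, a 4.35-fold difference. Its 2 probe sets gave -2.27 and -1.97. Sqle, squalene epoxidase, a control point of the pathway, differed by less, with 8.37 against 9.00. Lss, which closes the ring to form lanosterol, read 8.45 against 9.53 and fell short of 2-fold under each other scaling (-0.75 to -0.99).

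In the conversion of lanosterol to cholesterol, 6 of 8 genes passed 2-fold in unbound, against 11.0% of all genes, and the median was -1.26. With array medians subtracted or after quantile normalization 3 of 8 did, Cyp51, Msmo1 and Ebp, against 6.80% and 8.60% of all genes. Cyp51, the demethylase that acts on lanosterol, read 6.24 in TRAP, a low value, and 8.35 in unbound (4.31-fold). Msmo1, the sterol C4 methyl oxidase, read 6.86, also low, against 8.84, and Nsdhl, the dehydrogenase that works with it on the same methyl groups, 8.35 against 9.50. The third enzyme of that demethylation, Hsd17b7, had the smaller difference of 7.90 against 8.63. Ebp, the sterol isomerase, read 6.62, a low value, against 8.11. Sc5d, the desaturase, and Dhcr7, whose reduction step completes cholesterol, were nearly alike, with 7.78 against 9.03 and 7.69 against 8.95. Under those 2 scalings Sc5d, Dhcr7 and Nsdhl lay between -0.81 and -0.99. Tm7sf2, a sterol reductase, was the exception with 6.90 in TRAP and 6.72 in unbound, both low.

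Fatty acid supply and synthesis showed almost no difference between the fractions. Acly, which makes cytosolic acetyl-CoA from citrate, read 10.36 in TRAP and 10.34 in unbound and turned slightly negative (-0.02) with the loess trend removed. Acaca, acetyl-CoA carboxylase, read 8.69 against 8.86, with probe sets at -0.21 and -0.11, and was positive with array medians subtracted or quantiles equalised. Fasn, fatty acid synthase, read 10.19 against 10.55, a difference of -0.36. None of these 3 genes reached 1.5-fold.

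Desaturases stood at the other end of the branch. Fads2, the delta-6 desaturase that opens the route to long polyunsaturated fatty acids, read 7.42 in TRAP against 9.92, a 5.65-fold difference, and 0.764% of all genes had a lower one. Fads1, the delta-5 desaturase that acts after it, read 8.40 against 10.30. The third gene of this chromosomal cluster, Fads3, known for desaturating sphingoid bases, read 7.40 against 7.51, a difference of -0.11 whose sign turned under each other scaling. Of the stearoyl-CoA desaturases, which make monounsaturated fatty acids, Scd1 read 8.17 against 10.17 (3.99-fold) and Scd2, known as the main form in brain, 10.77 against 12.09 (2.50-fold). Scd1 and Scd2 are close paralogs, and probe sequences were not used here to check how well each probe set separates them. In all, 4 of 5 desaturases passed 2-fold in unbound, against 11.0% of all genes, with a median of -1.90.

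All 5 elongases had the higher value in unbound under every scaling. As deposited 3 passed 2-fold, after quantile normalization 2, and with array medians subtracted Elovl5 alone. The shares of all genes were 11.0%, 8.60% and 6.80%, in that order. Elovl5, which lengthens polyunsaturated fatty acids, read 8.53 in TRAP against 9.99, a 2.75-fold difference. Elovl4, which makes very long chain fatty acids, read 8.42 against 9.54. Mutations of both genes are known from inherited ataxia. Elovl6, which extends palmitate to stearate, lay just past 2-fold with 10.29 against 11.30. Elovl1, for saturated very long chains, read 6.67, a low value, against 7.42, and Elovl7 7.13 against 7.70.

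Set side by side by location, the enzymes of both branches gave like values. Of 8 measured cytosolic enzymes 1 passed 2-fold in unbound, with a median of -0.21. Of 21 enzymes at the endoplasmic reticulum 15 did, with a median of -1.25. The share over all genes was 11.0%, and the cytosolic count lies near it. Within sterol synthesis the medians were -0.26 for cytosolic and -1.25 for reticulum enzymes, and within the fatty acid branch -0.16 and -1.22. The distance between the location medians was -1.04 over both branches. It was -0.92 after quantile normalization, -0.95 with the loess trend removed and -1.06 with the brightest probe set. Subtracting array medians moves every gene by the same amount and cannot change it. The ranges overlapped: Hmgcs1 lay among the reticulum enzymes, and Tm7sf2 and Fads3 among the cytosolic ones. With array medians subtracted the counts were 0 of 8 and 8 of 21, where 6.80% of all genes passed. No test was made of this split.

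**Figure D2:**
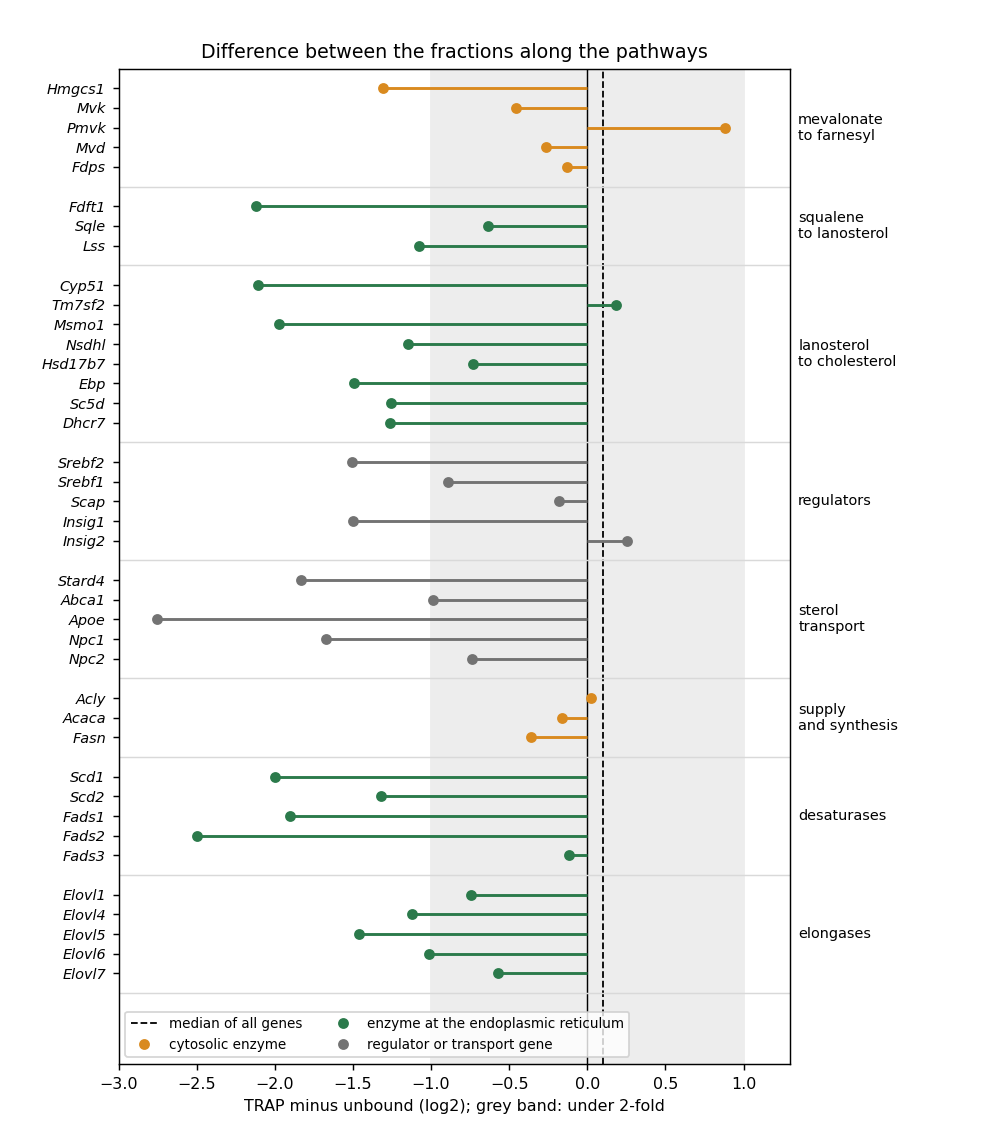
The difference between the fractions (TRAP minus unbound, log2) for each gene in pathway order, coloured by where the enzyme works, with a grey band for differences under 2-fold and a dashed line at the median of all genes, 0.10. Cytosolic enzymes (orange) lie inside the band except Hmgcs1, while 15 of 21 enzymes at the endoplasmic reticulum (green) lie left of it. Of all genes, 11.0% passed 2-fold in unbound.

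Of the 5 regulators, 2 passed 2-fold in unbound under every scaling, Srebf2 and Insig1. Under single scalings, 6.80% to 11.0% of all genes passed there. Srebf2, the factor known mainly for sterol genes, read 8.03 in TRAP against 9.54, a 2.84-fold difference. Srebf1, known mainly for fatty acid genes, read 6.74, a low value, against 7.63, with the same sign under every scaling. Insig1, itself a target of these factors, was 2.83-fold higher in unbound (8.45 against 9.95), whereas Insig2, which is less dependent on them, read 8.85 in TRAP and 8.60 in unbound and kept its sign under every scaling. Scap, their escort, was close to equal at 8.39 against 8.58, with a positive sign when array medians were subtracted or quantiles equalised. A further probe set names Srebf2 together with another gene and was left out.

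Transport genes had the lowest median of the 4 gene sets, -1.67, and each of the 5 was higher in unbound under every scaling. Apoe, the apolipoprotein that astrocytes secrete, read 8.48 in TRAP and 11.23 in unbound, the largest difference of all 39 genes at 6.76-fold, with 0.369% of all genes lower. Stard4, a cytosolic sterol carrier, read 7.36 against 9.19. Npc1, the lysosomal membrane protein that exports cholesterol, read 6.60, a low value, against 8.27, and its soluble partner Npc2 7.88 against 8.62. Abca1, the transporter that loads cholesterol onto apolipoproteins, read 6.15, low, against 7.14 and lay just short of 2-fold at -0.99, next to Elovl6 at -1.01 on the other side.

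Low values were counted separately. Of the 39 genes, 38 were above 7.08 on at least 1 array, 36 by their mean of both arrays, and 31 on both; Tm7sf2 was low on both. A gene low in TRAP alone enters the first count, and can enter the second, only through its higher unbound value, so no share is drawn from the genes that pass.

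**Figure D3:**
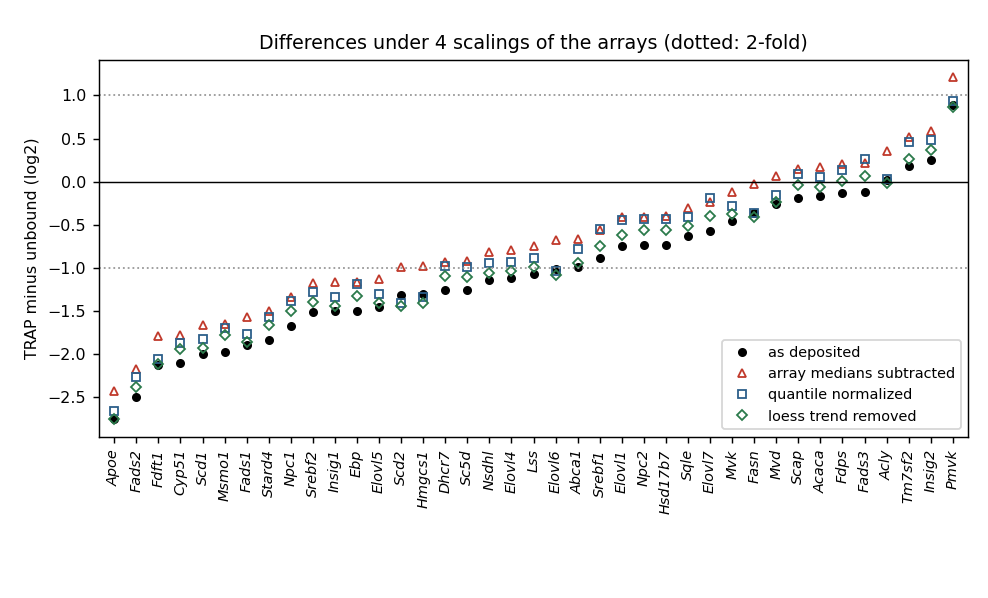
Difference between the fractions (TRAP minus unbound, log2) for the 39 genes, ordered by the deposited value, under 4 scalings of the arrays, with dotted lines at 2-fold. Of the 39 genes 33 kept their sign under all 4 scalings, and those that did not lie between -0.26 and 0.02 as deposited.

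Other genes of the same metabolism gave smaller differences. Of 16 measured genes of sterol handling outside the 41, 5 passed 2-fold in unbound and none in TRAP, against 11.0% and 4.58% of all genes. Their median was -0.43. The 4 with the largest differences were Lbr, a sterol reductase of the inner nuclear membrane (6.41, low, against 8.52), Lipa, the lysosomal acid lipase (5.56, low, against 7.23), and the lipoprotein receptors Lrp1 (6.95, low, against 8.40) and Lrp8, the reelin and apolipoprotein E receptor (9.00 against 10.16). The median of 22 further fatty acid genes was -0.21, which became 0.12 with array medians subtracted. Against the same shares of all genes, none of the 22 passed 2-fold in TRAP and 4 did in unbound. They were Elovl2, an elongase of polyunsaturated fatty acids (6.44, low, against 8.53), Lpin1, a phosphatidate phosphatase (6.75, low, against 8.23), Hsd17b12, the ketoacyl reductase of the elongation cycle (7.25 against 8.53), and Gpam, which starts glycerolipid synthesis (7.38 against 8.57). The remaining steps of the elongation cycle, named after their values were seen, also run in the endoplasmic reticulum and did not all lie as low: the dehydratases Hacd3 and Hacd2 read 7.81 against 8.68 and 7.16 against 7.91, Hacd1 8.94 against 9.07, and the enoyl reductase Tecr 11.61 in TRAP against 11.45 in unbound.

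Most markers of glia and granule neurons were also lower in TRAP. Their counts stand beside 11.0% of all genes past 2-fold in unbound. Of 14 astrocyte and Bergmann glia markers 10 passed 2-fold in unbound, the median being -1.99, led by Gfap (7.23 against 11.14), Aqp4 (7.07, low, against 10.60), Slc1a3 (8.18 against 10.79) and Aldh1l1 (6.90, low, against 9.36). Hopx and Aldoc, named after their values were seen, were higher in TRAP, at 10.36 against 9.42 and 12.97 against 12.03. The summed linear signal of the list was 1.59-fold higher in unbound, and Aldoc and Fabp7 (12.27 against 13.25) weigh most in it. Both have differences above the list median of -1.99, so this sum cannot be set against that of the lipid genes. For 12 oligodendrocyte lineage markers, 11 passed 2-fold in unbound, the median was -1.76 and the sum 3.59-fold higher; Enpp6, Sox10, Mbp and Pdgfra led. For 9 granule neuron markers these values were 8, -2.15 and 3.23-fold, led by Cbln3, Gabra6, Mfap4 and Neurod1. Of 10 vascular, mural and microglial markers 4 passed 2-fold in unbound (Dcn, Acta2, Fcer1g and C1qb), each low in TRAP, with a sum 1.92-fold higher. The median of -0.25 lay within the middle 50% of all genes and was 0.08 with array medians subtracted. Only 6 of the 10 were above 7.08 on at least 1 array, so this median rests partly on uncertain differences. The summed linear signal of the 39 lipid genes was 2.04-fold higher in unbound. The part of these cell types in the lipid gene differences was not tested.

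**Figure D4:**
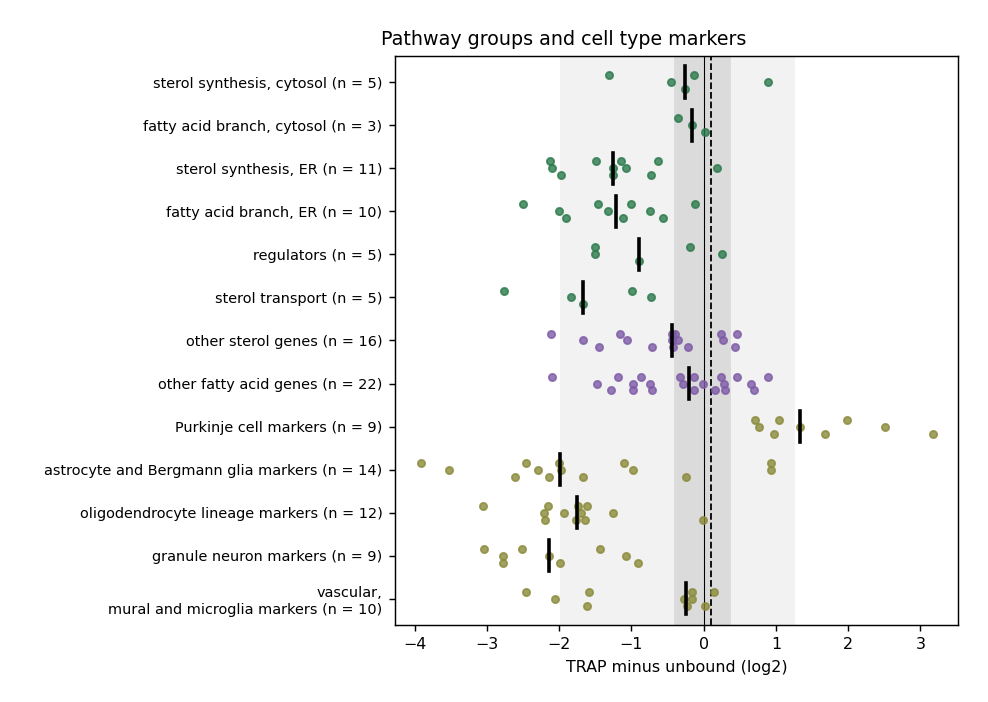
Differences between the fractions (TRAP minus unbound, log2) by group: enzymes by branch and location (ER, endoplasmic reticulum), regulators, transport genes, other lipid genes and cell type markers, with 1 point per gene and a black bar at each median. The dark and light grey bands hold the middle 50% and 95% of all genes. The medians of both reticulum enzyme groups, -1.25 and -1.22, lie below those of the cytosolic groups. They lie above the medians of the astrocyte (-1.99), oligodendrocyte lineage (-1.76) and granule neuron markers (-2.15), and below that of the vascular, mural and microglial markers (-0.25).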

How the data were processed

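For each probe set, the deposited table gives a log2 expression value on each array. Per the submitters' processing notes, the authors used Affymetrix Power Tools; the sources used here do not give its version, the background correction, the normalization or the summary method. Nor do they state the log base: as natural logs the highest value, 13.65, would exceed the 65535 of a 16-bit scanner, so log2 was taken. Of 22097 probe sets, 20999 name 1 gene in the platform annotation, 91 were left out because they name several, and 1007 have no name here; 20959 matched the RefSeq genes of GRCm38.p6 by Entrez identifier. Probe sets were averaged per gene (37 of the 39 genes have 1, Fdft1 and Acaca have 2).

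No scaling, filter or test was applied. Alternatives were subtraction of array medians, quantile normalization, loess removal (span 0.3, statsmodels 0.14.6), the brightest probe set, level filters at 7.08, and 1.5-fold and 4-fold thresholds. By rule, all 39 genes could be named, and of each other list the 4 genes with the largest difference; Hacd1, Hacd2, Hacd3, Tecr, Hopx, Aldoc and Fabp7 were named outside it, after their values were seen. The number of arrays limits the precision. Calculations used Python 3.11.15 and pandas 2.3.3, and the scripts were tested on simulated data. Protein sequences were not used here. The genes and lists were chosen with earlier results of these data known.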

Additional observations from a re-analysis of the deposited data

How the results depend on the processing

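Without replicates, no alternative can show more than how far a value moves. With array medians subtracted, 4 of 16 sterol synthesis genes and 4 of 13 fatty acid genes passed 2-fold in unbound, and the medians were -0.78 and -0.68. By location, 0 cytosolic and 8 reticulum enzymes passed 2-fold, and 6.80% of all genes did. Quantile normalization gave 5 sterol genes past 2-fold, against 8.60% of all genes, and medians of -0.92 and -0.93. The sterol minus fatty acid distance was then 0.012 with the sign turned, and the location distance -0.92. Removing the loess trend gave medians of -1.02 and -1.04, a branch distance of 0.013 with the sign turned, and a location distance of -0.95. With the brightest probe set the location distance was -1.06. Genes above 7.08 on at least 1 array gave a sterol median of -1.15 and a branch distance of -0.13. By the mean of both arrays the medians were -1.15 and -1.07, the branch distance -0.079 and the location distance -1.05. A gene low in TRAP alone can pass these filters only through its unbound value. The filtered medians and distances are therefore no check of stability. At 4-fold, 2 sterol and 1 fatty acid gene were past the threshold, where 2.37% of all genes were. With regulators (but not Srebf1) and transport genes added to the sterol branch, 14 of 25 genes passed 2-fold in unbound, against 11.0% of all genes. The median was -1.15 and the branch distance -0.13. The alternatives for the location split were chosen after seeing the data. No single gene at least 2-fold apart as deposited changed sign under the scalings or probe set choices run. Subtracting array medians adds 0.33 to each difference and could not turn such a gene. Only Fdft1 among them has a second probe set, so neither alternative is a check of stability here. No paired analysis was possible because each fraction has 1 array. The cause of these shifts was not tested beyond what each alternative does by construction.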
